A study of Mus musculus with 8 samples.

Results

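The tumour necrosis factor (TNF) superfamily genes of SV-LECs were described here, separately for ligands and for receptors. Members were taken by symbol: all genes named Tnfsf or Tnfrsf followed by a number, and in addition Tnf, Lta, Ltb, Ltbr, Fas, Fasl, Cd40 and Cd27. This gave 39 genes, 15 ligands and 24 receptors, of 55471 genes in the count table. TNF superfamily ligands are mostly membrane-bound trimers, several of which are shed, and they bind receptors with cysteine-rich extracellular domains. The receptors recruit TRAF adaptors, which lead to NF-κB and kinase signalling, or, where they carry a death domain, adaptors that can start caspase-dependent death, whereas decoy receptors bind ligand without passing on a signal. In lymphatic vessels and lymph nodes the family is best known for lymphotoxin signalling in lymphoid organ development and for RANK ligand and BAFF made by stromal and endothelial cells.

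SV-LEC is an SV40-immortalized mouse lymphatic endothelial line of mesenteric adventitial origin. 4 libraries came from cells without added TGFβ1 and 4 from the same line after TGFβ1 at 10 ng/ml for 72 h, and both groups therefore share the immortalized background. Poly(A) RNA was sequenced, and the files give read counts per gene, with totals between 18952504 and 26386941 per library. The study's methods call the 4 samples of a group technical replicates, so that the errors and false discovery rates (FDR) below cover the spread between samples of a single line and not between independent experiments. Values are given as CPM, read counts scaled to a common library size by TMM. A level of 3 counts in a library, chosen as a floor, corresponds to 0.113 to 0.162 CPM, depending on the library's size. Groups were compared with edgeR's likelihood ratio test, and genes were called changed at an FDR under 0.05 over all 13818 genes that passed a filter on low counts. In bulk RNA, a change in the number of cells that express a gene and a change of RNA per cell cannot be told apart.

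The identity of the cells and the treatment were checked with marker genes. The TGFβ response genes Pmepa1, Smad7 and Skil were higher after TGFβ1 by 1.85, 0.89 and 0.63 on the log2 scale in edgeR's fit, while Tgfbi had at most 3 counts in any library. Of 13 lymphatic endothelial markers, 5 passed the filter (Pdpn, Flt4, Kdr, Tek and Nr2f2), whereas the defining markers Prox1, Lyve1, Pecam1 and Cdh5 had at most 2, 3, 5 and 2 counts in any library, and Tie1 and Ccl21a had 0 in all. The summed level of this list was 401 to 439 CPM in untreated and 384 to 393 CPM in TGFβ1 libraries. Most of it was Pdpn, which fell from 342 to 312.5 CPM, while Nr2f2 fell by 0.95 and Kdr and Flt4 rose by 0.93 and 0.44 on the log2 scale. The label of the line as lymphatic endothelium therefore went with Pdpn, Flt4 and Kdr RNA and without these defining markers. Of 13 leukocyte markers, Cd68 and Csf1r passed the filter, both higher. Csf1r had 3 to 10 counts in untreated libraries and passed through its TGFβ1 libraries alone. The summed level of the 13 was 6.17 to 8.30 CPM in untreated and 16.7 to 19.2 CPM in TGFβ1 libraries. Of the 13, 10 had at most 3 counts in every library, Ptprc at most 1. The summed level of 8 fibroblast and mural markers moved from 3217 to 4557 CPM up to 5565 to 6691 CPM, and that of 6 epithelial markers from 0.304 to 1.18 CPM up to 2.71 to 4.23 CPM. Most of the fibroblast and mural sum was Col1a1, with means of 3459 and 6057 CPM. Des rose from 1.69 to 7.15 CPM, Cspg4 from 12.8 to 23.0 CPM and Pdgfrb from 44.7 to 69.3 CPM. In contrast, Dcn fell from 312 to 83.0 CPM and Pdgfra from 160 to 57.8 CPM. Lum and Rgs5 were not tested, Lum with means of 0.339 and 0.0122 CPM and Rgs5 with 0 and 0.21 CPM. The part of these cell type genes in the results below was not tested.

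TGFβ1 was followed by higher RNA of many TNF superfamily receptors and by changes of fewer ligands in either direction. The GITR gene Tnfrsf18, osteoprotegerin (Tnfrsf11b), the decoy receptor Tnfrsf23, Tnfrsf26 and Cd40 rose most, and the death receptors Fas and Tnfrsf10b and the TWEAK receptor Tnfrsf12a rose by log2 fold changes between 1.15 and 1.35. Among ligands, Tnfsf13b (BAFF) rose, and Tnfsf18 (GITR ligand) and Tnfsf10 (TRAIL) fell. In numbers, 24 of 39 members passed the filter on low counts, 6 of 15 ligands and 18 of 24 receptors. Of the 18 receptors, 13 were called higher, 2 lower and 3 were not called, with a median log2 fold change of 0.81. Of the 6 ligands, 1 was called higher, 2 lower and 3 were not called, with a median of -0.13. Over all 13818 genes tested, 75.6% were called, 37.6% as higher and 38.0% as lower, and the median was -0.0064. A log2 fold change above 1 with a call was found for 8 of the 18 receptors and for 10.9% of all genes, and one below -1 for 1 receptor and 1 ligand and for 6.56% of all genes. The 4 TGFβ1 libraries lay wholly outside the untreated range for 11 of 18 receptors and 2 of 6 ligands, and for 69.8% of all genes. Cd40 passed the filter through its TGFβ1 libraries alone, and these counts describe the members tested rather than support a direction for the family.

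**Figure D1:**
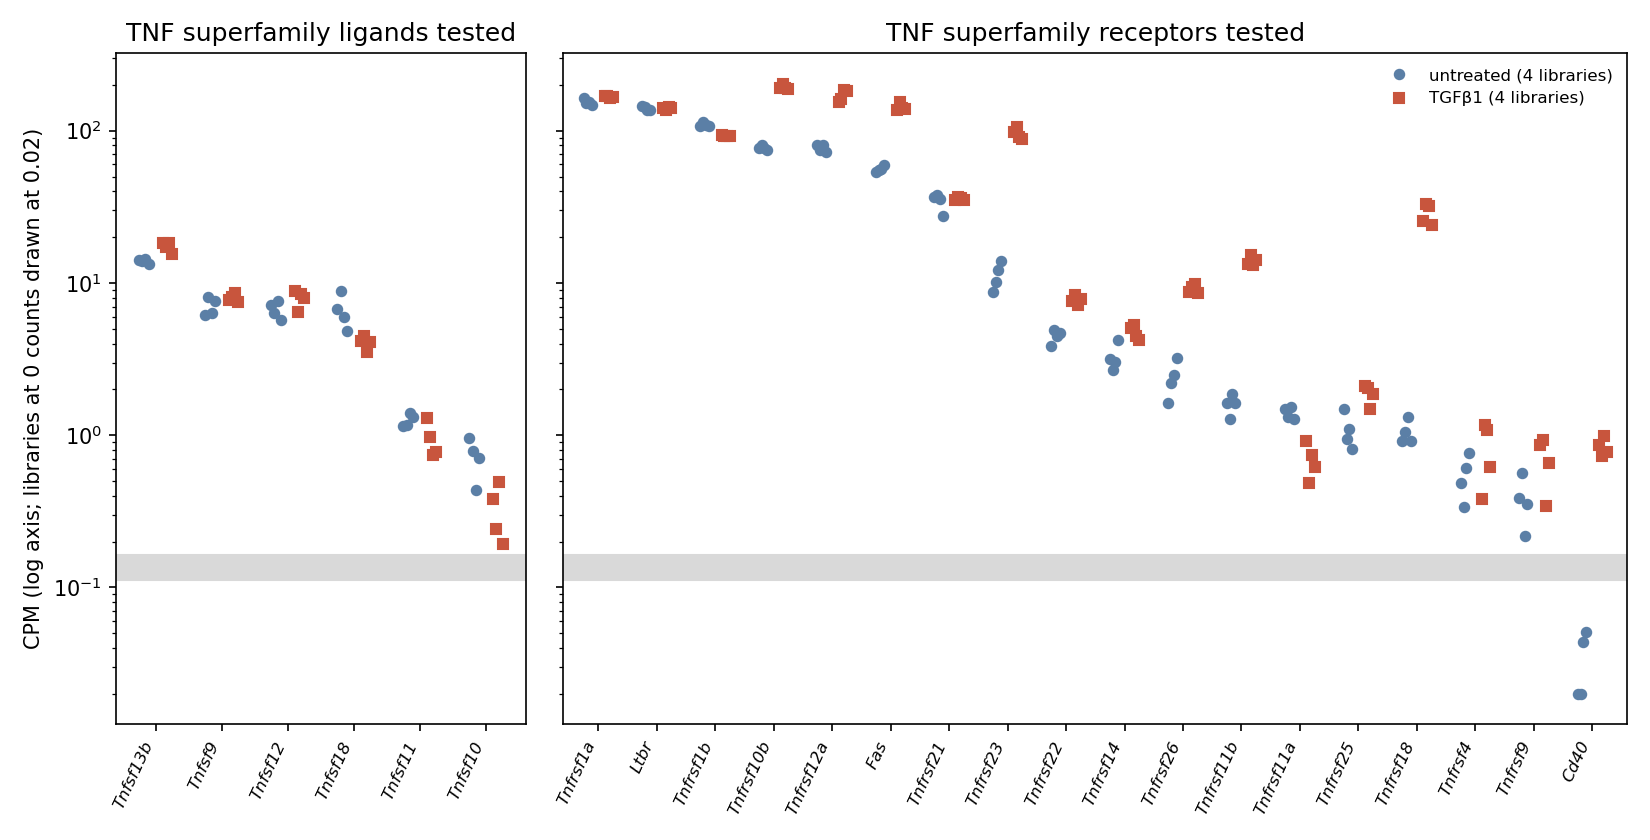
Level of each tested ligand (left) and receptor (right) in CPM on a log axis, 1 symbol per library, circles untreated and squares TGFβ1, 4 each. The grey band marks the level of 3 counts, 0.113 to 0.162 CPM, and the pair of untreated libraries with 0 Cd40 counts is drawn at the bottom. Tnfrsf18, Tnfrsf11b, Tnfrsf23, Tnfrsf26 and Cd40 show the widest gaps between groups, whereas Ltbr and Tnfrsf21 overlap.

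Summed over all ligands, the level was 34.3 to 40.3 CPM in untreated and 37.4 to 42.1 CPM in TGFβ1 libraries, and these ranges overlapped. Summed over all receptors it was 655 to 688 CPM in untreated and 1085 to 1137 CPM in TGFβ1 libraries, without overlap. Sums of CPM also depend on transcript length and are not compared between ligands and receptors.

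Among the ligands, Tnfsf18, which encodes the ligand of GITR, had 6.70, 8.83, 5.94 and 4.87 CPM in untreated libraries and 4.17, 4.48, 3.54 and 4.11 CPM after TGFβ1. All untreated libraries lay above all TGFβ1 libraries, the second untreated library being the highest. The mean was 6.58 ± 1.67 CPM against 4.08 ± 0.390 CPM (SD, n = 4), a log2 fold change of -0.70 (SE 0.170, edgeR FDR = 6.70e-05). Tnfsf10, whose product TRAIL binds the death receptor encoded by Tnfrsf10b, had 20, 21, 10 and 14 counts in untreated and 7, 5, 10 and 5 counts in TGFβ1 libraries. It was low throughout, and the groups overlapped. The third library of each group had 10 counts, which was 0.437 CPM in untreated and 0.492 CPM after TGFβ1. The log2 fold change was -1.17 (SE 0.350, edgeR FDR = 7.45e-04). Tnfsf13b encodes the B-cell survival factor BAFF and had 14.2, 13.9, 14.3 and 13.3 CPM in untreated against 18.2, 17.1, 18.3 and 15.5 CPM in TGFβ1 libraries. It was the only tested ligand called higher, and its groups did not overlap. The rise was modest, with a log2 fold change of 0.30 (SE 0.0790, edgeR FDR = 2.36e-04).

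The other 3 ligands tested were not called. Tnfsf11, which encodes RANK ligand, had a mean of 1.26 CPM in untreated and 0.947 CPM in TGFβ1 libraries (log2 fold change -0.43, edgeR FDR = 0.0634). Tnfsf12, which encodes TWEAK, had 6.69 and 7.94 CPM (0.24 on the log2 scale, edgeR FDR = 0.0647). In the annotation, 45.8% of its 75-base stretches also occur in the readthrough gene Tnfsfm13, so its counts are uncertain. Tnfsf9, the ligand of the costimulatory receptor encoded by Tnfrsf9, had 7.03 and 7.97 CPM (0.17 on the log2 scale, edgeR FDR = 0.150). Without TGFβ1 library 1, Tnfsf11 was called lower at -0.60, and without untreated library 3 or TGFβ1 library 2, Tnfsf12 was called higher at 0.31 and 0.33 on the log2 scale.

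The other 9 ligands did not reach the filter. Tnfsf15, the ligand of the receptor encoded by Tnfrsf25, had 10, 22, 17 and 9 counts in untreated and 5, 7, 3 and 5 counts in TGFβ1 libraries. All TGFβ1 libraries were lower, and an exact two-sided permutation test on log2 CPM gave p = 0.0286, the smallest that 4 against 4 libraries allow. This test was made for 13 members below the filter, without adjustment for their number, and 3 had a p under 0.05. Groups were wholly apart for 69.8% of all 13818 genes that passed the filter. These 13 members lie below it, and the share for genes below the filter is not given here. Tnfsf13, which encodes the BAFF relative APRIL, had 1, 3, 6 and 4 counts against 13, 10, 11 and 12, so that all TGFβ1 libraries were higher (exact permutation p = 0.0286), but it shares 55.7% of its 75-base stretches with Tnfsfm13. Tnfsf4, a costimulatory ligand of T cells, had 1, 2, 0 and 0 counts against 7, 1, 10 and 11. The second TGFβ1 library stayed within the untreated range (exact permutation p = 0.0571), and the ratio of the summed counts per library size was 10.2, with a 95% interval from counting error of 3.17 to 52.4. Tnf, Lta, Ltb, Fasl and Tnfsf8 had at most 6 counts in any library, and Tnfsf14, the ligand LIGHT, had 0 counts in all 8.

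The receptor with the clearest rise was Tnfrsf18 (chr4:156026164-156028895, plus strand, GRCm38, protein-coding), which encodes GITR, a costimulatory receptor of T cells. It had 0.915, 1.05, 1.31 and 0.913 CPM in untreated libraries and 25.5, 33.0, 32.1 and 23.99 CPM in TGFβ1 libraries. Every TGFβ1 library was far above every untreated library. The mean moved from 1.05 ± 0.187 to 28.7 ± 4.58 CPM (SD, n = 4), a log2 fold change of 4.76 (SE 0.186, edgeR FDR = 1.61e-184), and it ranked 63rd of 13818 genes by log2 fold change. The opposite-strand gene Gm16008 overlaps 27.2% of the exon bases of Tnfrsf18, and the use of strand in counting is not given in the sources used here. Its ligand gene Tnfsf18 fell, as described above. RefSeq promoter windows on GRCm38.p6, cut to the bases upstream of the annotated exons, are printed for 4 members: the 3 with the largest rises among tested members with an entry in the promoter table, and the ligand paired with GITR. Capitals mark letters that match a searched motif on either strand. The bases lie at chr4:156026072-156026163 (plus strand) for Tnfrsf18 and at chr1:161494407-161494654 (plus strand) for Tnfsf18:
Tnfrsf18: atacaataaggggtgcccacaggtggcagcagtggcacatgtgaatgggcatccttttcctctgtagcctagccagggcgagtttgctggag
Tnfsf18: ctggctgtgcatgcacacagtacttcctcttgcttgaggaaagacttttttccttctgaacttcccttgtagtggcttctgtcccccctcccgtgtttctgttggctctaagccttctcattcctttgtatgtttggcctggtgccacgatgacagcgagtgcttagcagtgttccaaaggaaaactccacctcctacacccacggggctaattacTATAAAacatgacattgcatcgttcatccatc
The 92 bases shown for Tnfrsf18 held no searched motif, and those of Tnfsf18 held TATAAA near the start of the gene.

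The other costimulatory receptors were at low levels. Cd40, whose product activates B cells, endothelium and antigen-presenting cells, had 0, 0, 1 and 1 counts in untreated and 16, 15, 20 and 20 counts in TGFβ1 libraries. The groups did not overlap, and the ratio of the summed counts per library size was 37.5 with a 95% interval from counting error of 10.0 to 316 (edgeR FDR = 1.81e-19). Cd40 passed the filter through its TGFβ1 libraries alone, so that this FDR is not taken as support for its direction. Cd27, a lymphocyte receptor for CD70, did not reach the filter and had 0, 1, 0 and 0 counts against 8, 8, 4 and 7, a ratio of 28.6 with an interval of 4.71 to 1169 (exact permutation p = 0.0286). Tnfrsf9 moved from a mean of 0.381 to 0.699 CPM, with overlapping groups, and was called higher at 0.83 on the log2 scale (SE 0.338, edgeR FDR = 0.0163). This call was lost with DESeq2 and without untreated library 3 (0.63), TGFβ1 library 1 (0.73) or TGFβ1 library 2 (0.67). Tnfrsf4 had 10, 9, 14 and 15 counts against 7, 24, 22 and 16, a log2 fold change of 0.59 that was not called (edgeR FDR = 0.0935). It was called higher without untreated library 4 (0.77) or TGFβ1 library 1 (0.80). Tnfrsf8, which encodes CD30, had at most 5 counts in any library. Of the leukocyte markers fixed for comparison, Ptprc and Cd3e had at most 1 count in any library, Cd4 at most 2, and Cd8a, Adgre1 and Nkg7 had 0 in all libraries. Other genes of that list rose without overlap between groups, Cd68 from 6.96 to 15.9 CPM and Csf1r from 0.278 to 1.38 CPM. Csf1r passed the filter through its TGFβ1 libraries alone, as Cd40 did. Lyz2, which was not tested, had at most 3 counts in untreated and 10 to 13 counts in TGFβ1 libraries. The part of these leukocyte markers in the values of the costimulatory receptors was not tested.

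The decoy receptors rose together in these libraries. Tnfrsf11b encodes osteoprotegerin, the secreted decoy for RANK ligand, and had 1.64, 1.28, 1.88 and 1.62 CPM in untreated against 13.4, 15.3, 13.2 and 14.2 CPM in TGFβ1 libraries. The groups were far apart (log2 fold change 3.14, SE 0.146, edgeR FDR = 2.53e-130). Tnfrsf23 (chr7:143665809-143685872, minus strand), which encodes a membrane decoy for TRAIL, had 8.77, 10.1, 12.1 and 14.0 CPM against 97.7, 105.5, 90.6 and 88.6 CPM. The groups were again far apart, with a log2 fold change of 3.09 (SE 0.103, edgeR FDR = 5.05e-184). Tnfrsf22, the neighbouring TRAIL decoy, rose less, from 3.85, 4.92, 4.45 and 4.72 CPM to 7.57, 8.28, 7.14 and 7.84 CPM (0.78 on the log2 scale, SE 0.1125, edgeR FDR = 1.01e-11). Both decoys were without overlap between groups, but 20.8% of the 75-base stretches of Tnfrsf22 and 13.1% of those of Tnfrsf23 also occur in other genes on the same strand, mainly in each other. Tnfrsf26, the adjoining gene of the same cluster, had 1.64, 2.22, 2.49 and 3.20 CPM against 8.66, 9.35, 9.89 and 8.58 CPM, also without overlap (1.94 on the log2 scale, SE 0.1445, edgeR FDR = 6.31e-43). The upstream bases of Tnfrsf23 at chr7:143685876-143686125 (minus strand), in which TATAAA was found on the opposite strand, read:
Tnfrsf23: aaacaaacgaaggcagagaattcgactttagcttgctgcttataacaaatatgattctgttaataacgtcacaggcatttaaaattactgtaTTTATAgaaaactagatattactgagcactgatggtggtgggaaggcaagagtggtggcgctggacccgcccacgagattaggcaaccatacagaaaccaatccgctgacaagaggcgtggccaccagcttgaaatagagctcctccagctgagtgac

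The death domain receptors Fas and Tnfrsf10b were already well measured in untreated cells and rose by similar amounts. Fas (chr19:34290666-34327772, plus strand), which encodes the receptor of Fas ligand, had 53.8, 54.8, 56.2 and 59.1 CPM in untreated and 136, 153, 141 and 138 CPM in TGFβ1 libraries. Tnfrsf10b, which encodes the TRAIL death receptor of the mouse, had 76.9, 80.9, 77.5 and 74.4 CPM against 191, 204, 190 and 188 CPM. Neither gene overlapped between groups. The log2 fold changes were 1.35 for Fas (SE 0.0522, edgeR FDR = 5.69e-143) and 1.32 for Tnfrsf10b (SE 0.0459, edgeR FDR = 7.83e-178). Tnfrsf25, the receptor for the Tnfsf15 product, rose from a mean of 1.08 to 1.87 CPM with overlapping groups (0.79 on the log2 scale, edgeR FDR = 1.78e-04). Tnfrsf21, which encodes a death receptor with roles in neurons and lymphocytes, had 36.4, 38.1, 35.3 and 27.6 CPM against 35.1, 36.5, 36.2 and 34.9 CPM. Its groups overlapped and it was not called (0.05 on the log2 scale, edgeR FDR = 0.585, and -0.0166 with total counts as library size). Ligands for Fas and for the TRAIL receptor were scarce in the same libraries, Fasl with at most 1 count and Tnfsf10 with at most 21. The upstream bases of Fas at chr19:34290409-34290658 (plus strand) hold the AP-1 letters TGAGTCA:
Fas: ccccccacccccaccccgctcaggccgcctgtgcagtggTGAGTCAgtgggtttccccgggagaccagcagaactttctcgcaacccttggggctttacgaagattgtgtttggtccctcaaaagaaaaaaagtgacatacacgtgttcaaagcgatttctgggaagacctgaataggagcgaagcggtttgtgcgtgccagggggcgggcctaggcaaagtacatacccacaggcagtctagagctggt

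The 4 searched motifs were counted in RefSeq windows of the 250 bases before each start, on both strands, and none of the motifs contains another. Of 32851 windows in the genome, 17.1% held CAGACA, the SMAD CAGA box, 6.75% TGANTCA, the AP-1 site, 5.00% the NF-κB consensus and 12.4% TATAAA. Of 35 windows found for 31 of the 39 members, 6, 6, 4 and 6 held them. The CAGACA match of Tnfrsf18 lies past the bases printed above. These are matches of letters and not sites of binding.

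The receptors for TNF and lymphotoxin itself moved little. Tnfrsf1a, which encodes the broadly expressed death domain receptor of TNF, had 165, 153, 155 and 147 CPM in untreated and 169, 168, 163 and 166 CPM in TGFβ1 libraries. The groups overlapped, and the log2 fold change was 0.10 (SE 0.0437, edgeR FDR = 0.0247). The call was lost with total counts as library size (0.04), with no filter (0.07) and without untreated library 2 (0.10), 3 (0.10) or 4 (0.08) or TGFβ1 library 1 (0.10) or 2 (0.10). Tnfrsf1b, the receptor of TNF that lacks a death domain, had 107, 114, 109 and 107 CPM against 93.9, 92.9, 92.9 and 92.7 CPM. It was lower in every TGFβ1 library, by a small amount (-0.23 on the log2 scale, SE 0.0422, edgeR FDR = 1.41e-07). Ltbr, the lymphotoxin β receptor needed for lymph node formation, had 145, 142, 136 and 136 CPM against 141, 137, 144 and 140 CPM and was not called (edgeR FDR = 0.886). Its estimate of 0.0069 on the log2 scale had an SE of 0.0415 and turned negative with total counts as library size (-0.0604) and with no filter (-0.0236). Tnfrsf14, the herpesvirus entry mediator that also binds LIGHT, rose from 3.27 to 4.77 CPM with overlapping groups (0.55 on the log2 scale, edgeR FDR = 3.94e-04).

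Tnfrsf12a, which encodes the TWEAK receptor Fn14, an injury-responsive receptor, had 80.6, 75.0, 80.4 and 72.2 CPM in untreated and 155, 162, 185 and 183 CPM in TGFβ1 libraries. The groups were well apart (log2 fold change 1.15, SE 0.0636, edgeR FDR = 5.01e-71). Tnfrsf11a, which encodes RANK, the signalling receptor of RANK ligand, was the receptor that fell most, with 1.49, 1.32, 1.53 and 1.27 CPM against 0.920, 0.487, 0.738 and 0.621 CPM. All TGFβ1 libraries were below all untreated libraries (-1.03 on the log2 scale, SE 0.235, edgeR FDR = 9.72e-06). The receptors of BAFF and APRIL were near 0: Tnfrsf13c had at most 4 counts, Tnfrsf17 at most 1 and Tnfrsf13b 0 in all libraries. Tnfrsf19, a receptor known from epithelium and nervous tissue, had 5, 0, 4 and 0 counts against 2, 11, 6 and 7, with overlapping groups (exact permutation p = 0.143).

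**Figure D2:**
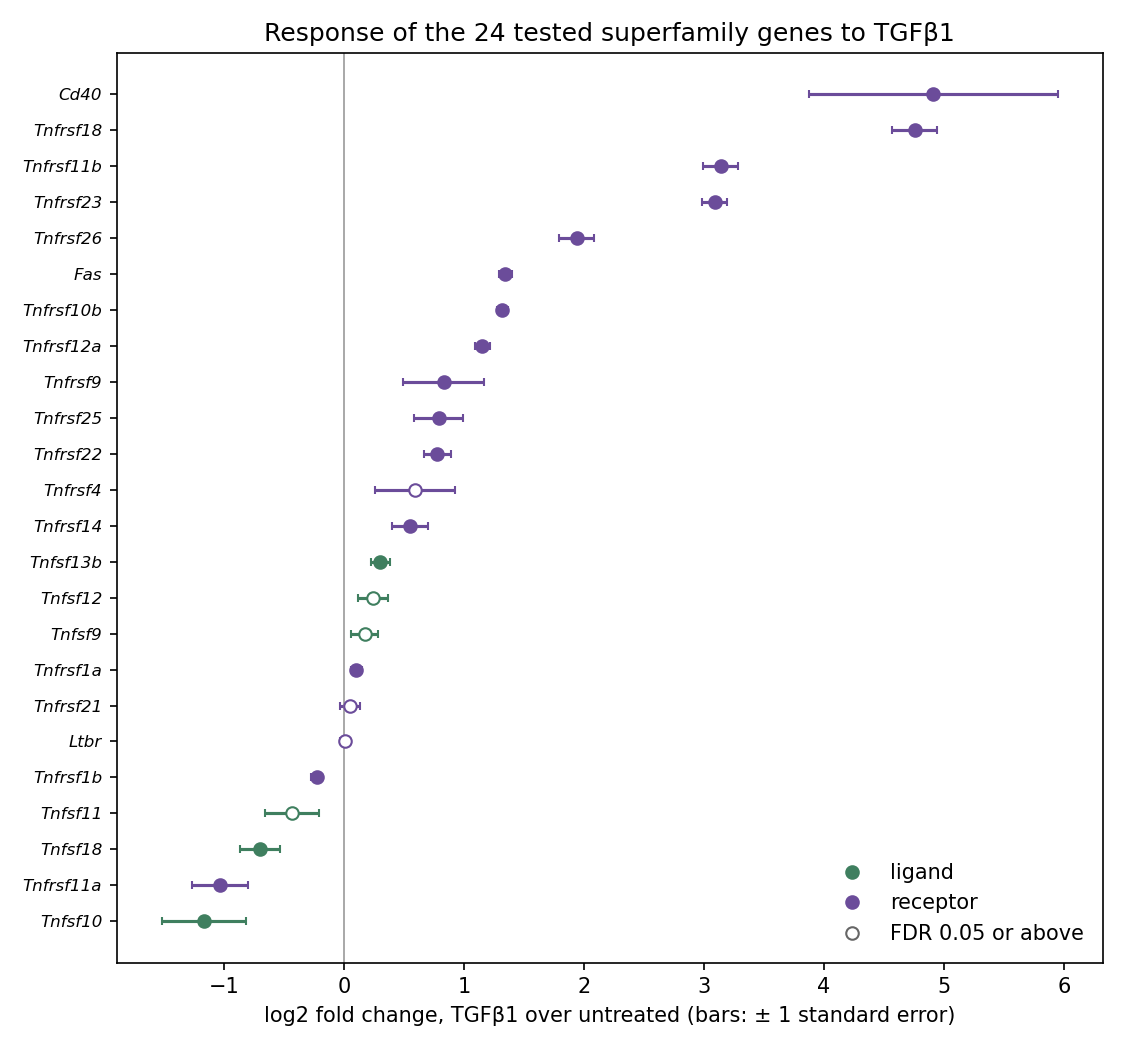
Log2 fold change of TGFβ1 over untreated for the 24 tested members, with bars of 1 standard error from the edgeR fit, n = 4 libraries per group. Filled symbols have an FDR under 0.05. Receptors fill the upper places from Cd40 at 4.91 and Tnfrsf18 at 4.76 to Tnfrsf14 at 0.55, and the ligands lie between -1.17 and 0.30.

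Compared per kilobase of annotated exon, the order of receptor levels changed with TGFβ1. In untreated libraries Tnfrsf1a (59.8 ± 2.86 CPM per kb, SD, n = 4) and Ltbr (59.4 ± 1.90) were highest and overlapped, followed by Tnfrsf12a (39.9 ± 2.16), Tnfrsf1b (28.5 ± 0.839), Fas (27.2 ± 1.12), Tnfrsf10b (14.2 ± 0.486) and Tnfrsf21 (8.36 ± 1.12). Of these neighbours Tnfrsf1b and Fas overlapped as well. After TGFβ1 the order was Tnfrsf12a (88.6 ± 7.74 CPM per kb), Fas (69.0 ± 3.69), Tnfrsf1a (64.3 ± 0.931), Ltbr (59.7 ± 1.25), Tnfrsf10b (35.5 ± 1.36), Tnfrsf1b (24.4 ± 0.144), Tnfrsf23 (24.1 ± 1.94) and Tnfrsf18 (18.8 ± 3.00). Tnfrsf1b and Tnfrsf23 overlapped, and the other neighbours in this order did not. Among ligands Tnfsf9 (5.45 CPM per kb in untreated, 6.18 after TGFβ1) and Tnfsf12 (4.42 and 5.24) were highest and overlapped in both groups, and Tnfsf18 (3.19 and 1.97) and Tnfsf13b (2.03 and 2.51) exchanged places. The most abundant ligand was thus below the seventh receptor in both groups on this scale.

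As a share of all receptor counts, Tnfrsf1a moved from 22.9% ± 0.727 to 15.03% ± 0.408 and Ltbr from 20.7% ± 0.417 to 12.7% ± 0.436 (SD, n = 4). Tnfrsf10b moved from 11.4% ± 0.279 to 17.4% ± 0.435, Fas from 8.29% ± 0.527 to 12.8% ± 0.441 and Tnfrsf23 from 1.67% ± 0.376 to 8.63% ± 0.610. These shares are not independent of each other, since a larger share of Tnfrsf23 lowers the others. Among ligand counts Tnfsf13b held the largest share in both groups, 37.6% ± 2.01 and 43.2% ± 1.31, and Tnfsf18 moved from 17.5% ± 3.33 to 10.3% ± 1.38.

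Pairs of members, either a receptor and its ligand or receptors with each other, were compared as ratios of counts within each library. These ratios do not depend on library scaling. The ratio of Tnfrsf11b to its ligand gene Tnfsf11 was 1.42, 1.10, 1.34 and 1.23 in untreated and 10.3, 15.8, 17.9 and 18.4 in TGFβ1 libraries, so the decoy went from near parity to clear excess in counts. The ratio of Tnfrsf11b to the signalling receptor Tnfrsf11a had a median of 1.16 in untreated and 20.4 in TGFβ1 libraries. The ratio of Tnfrsf18 to Tnfsf18 was 0.137, 0.119, 0.221 and 0.188 against 6.12, 7.37, 9.07 and 5.83. The ligand gene thus had more counts in all 4 untreated libraries, and the receptor gene in all 4 TGFβ1 libraries. Of the neighbouring decoys, Tnfrsf23 over Tnfrsf22 had a median of 2.50 in untreated and 12.7 in TGFβ1 libraries. Tnfrsf23 over the signalling TRAIL receptor gene Tnfrsf10b had 0.141 and 0.494, and Tnfrsf12a over its ligand gene Tnfsf12 had 11.6 and 22.4. The groups did not overlap in any of these ratios. The ratio of Tnfrsf1a to Tnfrsf1b moved from a median of 1.40 to 1.80, also without overlap, and that of Fas to Tnfrsf10b was 0.713 and 0.739 with overlapping groups. Ratios between genes also contain the difference of their transcript lengths, and the ratios reuse the fold changes given above.

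**Figure D3:**
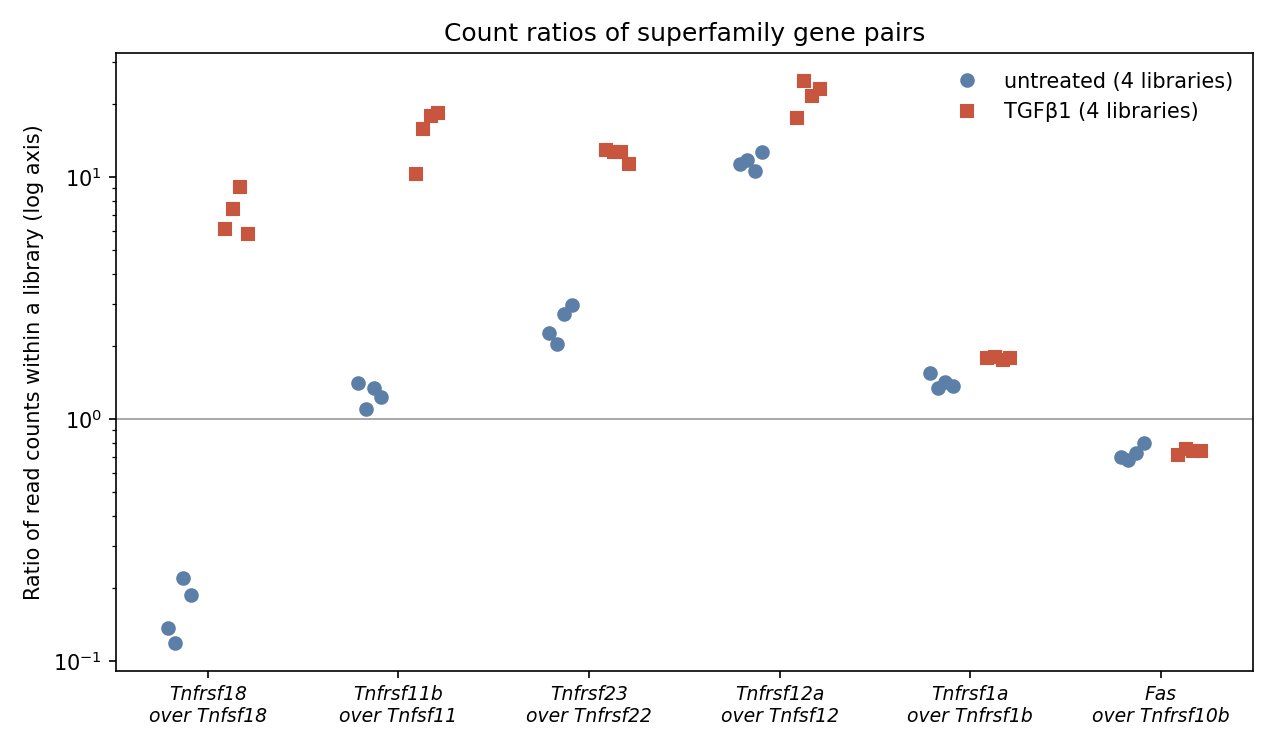
Ratio of read counts of 6 pairs of members in each library, on a log axis, circles untreated and squares TGFβ1, 4 each. The line at 1 marks equal counts. Tnfrsf18 over Tnfsf18 crosses this line, from 0.119 to 0.221 in untreated up to 5.83 to 9.07 in TGFβ1 libraries, while Fas over Tnfrsf10b stays below it in all 8.

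Several members are neighbours in the genome, some with like and some with unlike values. Tnfrsf26, Tnfrsf22 and Tnfrsf23 lie side by side on chromosome 7 with gaps of 6.08 and 16.1 kb and no other protein-coding gene between them, and all were called higher, with log2 fold changes of 1.94, 0.78 and 3.09. Tnfrsf4 and Tnfrsf18 are 9.55 kb apart on chromosome 4, and of these Tnfrsf18 was called higher (4.76) and Tnfrsf4 was not called (0.59). On chromosome 1, Tnfsf18 lies 76.2 kb from Tnfsf4, with a fall of the former and 3 counts in all untreated against 29 in all TGFβ1 libraries of the latter. On chromosome 6, Cd27, Ltbr and Tnfrsf1a are 69.6 and 35.5 kb apart, with Ltbr and Tnfrsf1a at 136 CPM or more in every library and Cd27 at no more than 8 counts. The Ltb, Tnf and Lta genes of chromosome 17 were all near 0.

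Superfamily genes with other symbols were examined alongside. Eda2r, which encodes a receptor of ectodysplasin A2, moved from 182 ± 24.1 to 357 ± 7.68 CPM (log2 fold change 0.97, SE 0.0732, edgeR FDR = 6.62e-39), and Relt from 6.40 to 9.47 CPM (0.56, SE 0.145, edgeR FDR = 1.76e-04). Both were called higher, Eda2r without and Relt with overlap between groups. Cd40lg, the ligand of CD40, had 0 counts in all libraries, and Cd70, Eda, Edar and Ngfr had at most 3 counts in any library.

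Genes that act after the receptors were described by lists of 68 genes in all, 65 of which passed the filter, with 34 called higher, 19 lower and 12 not called and a median log2 fold change of 0.24. Over all genes tested, 75.6% were called, 37.6% as higher and 38.0% as lower, and the counts of each list below stand against these shares. Of 7 receptor adaptors tested, 2 rose and 3 fell, among them the TRAF genes Traf3 (0.68), Traf4 (0.59) and Traf2 (-0.29). Of 12 genes of death signalling, 7 rose and 4 fell. Bid, which links death receptors to mitochondria, rose by 1.07 and Cflar, which encodes the caspase-8 inhibitor FLIP, by 0.89, whereas Fadd, the adaptor of Fas, had -0.66 on the log2 scale. Casp8 was not called, at 66.4 CPM in untreated and 69.1 CPM in TGFβ1 libraries (0.06, and -0.0089 with total counts as library size). Thus the genes for Fas and for the inhibitor FLIP were higher, while that of the adaptor between them was lower.

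Of 13 NF-κB kinases and subunits, 7 rose and 4 fell, with log2 fold changes of 0.74 for Map3k14, the kinase of the alternative pathway, -0.63 for Tab1 and 0.49 for Chuk. Of 8 inhibitors and deubiquitinases, 3 rose and 1 fell. Tnfaip3, which encodes the ubiquitin-editing inhibitor A20, moved from 29.7 to 83.2 CPM (1.48, SE 0.0643), Tnip2 rose by 0.54, Cyld had -0.21 and Nfkbia was not called (0.08). Of the 3 genes of the linear ubiquitin ligase, Rbck1 (0.56) and Sharpin (0.24) rose. Of 4 sheddase genes and partners, Rhbdf2 rose (0.58), and Adam17, the TNF-converting enzyme (-0.21), and Adam10 (-0.12) fell.

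Of 18 common NF-κB target genes tested, 12 rose and 5 fell, with a median log2 fold change of 0.43. Ptgs2, which encodes the cyclooxygenase of prostaglandin synthesis, moved from 271 to 1527 CPM (2.50) and Il6 from 7.06 to 22.3 CPM (1.64). Csf2 had at most 2 counts in untreated and 11 to 22 counts in TGFβ1 libraries, a ratio of 12.9 with a 95% interval from counting error of 5.24 to 41.1. It passed the filter through its TGFβ1 libraries alone, as Cd40 did, and is among the 12. Bcl3 (-1.12) and Tnfaip2 (-0.99) had the largest falls and are named after their values were seen. No test was made of any list as a whole.

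**Figure D4:**
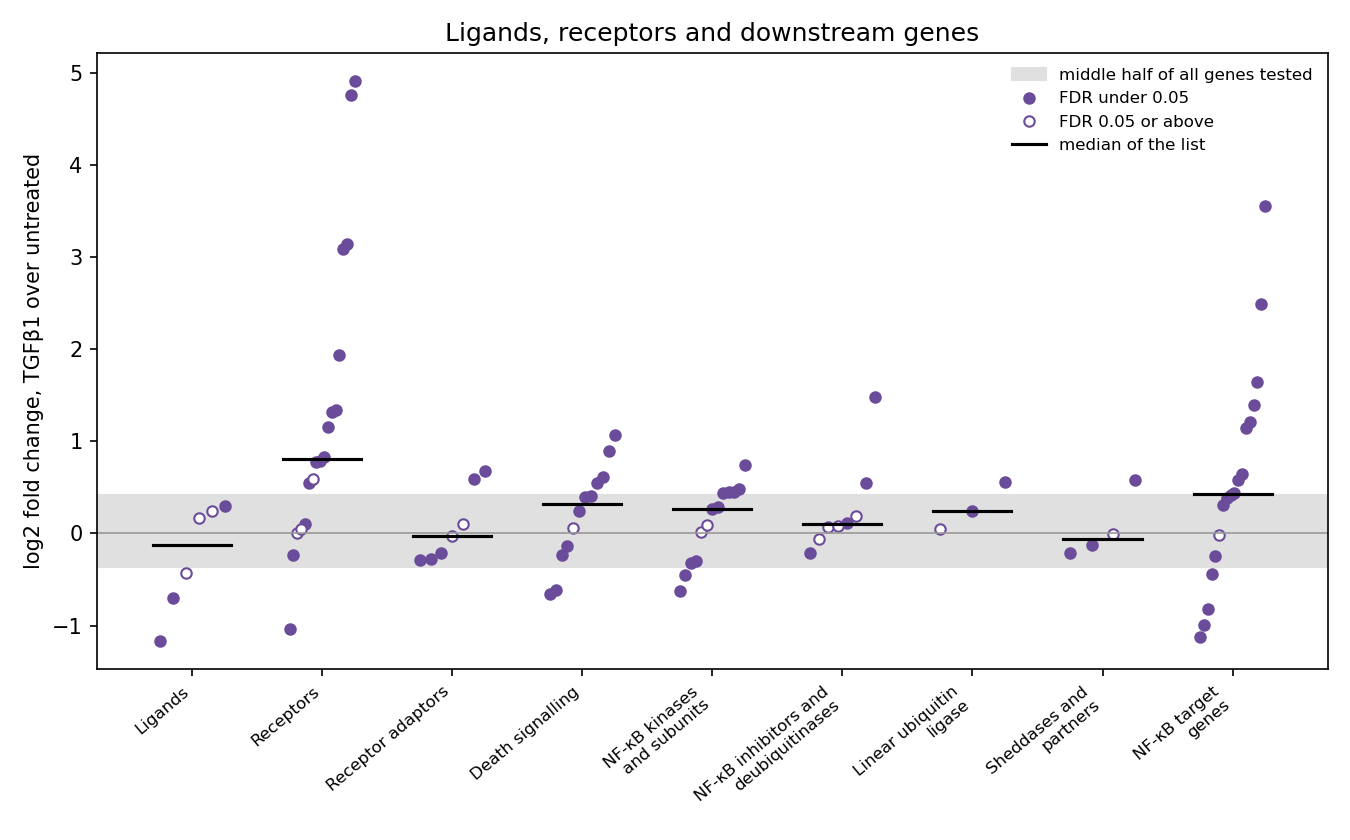
Log2 fold change of each tested gene, TGFβ1 over untreated, for ligands, receptors and 7 lists of genes that act with or after the receptors, 1 symbol per gene and a line at each median. The grey band runs from the lower to the upper quartile of all 13818 genes tested, -0.36 to 0.42. The receptor median of 0.81 lies above the band and those of the other lists lie within it or, for NF-κB targets at 0.43, just above it.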

How the data were processed

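RNA of 8 SV-LEC samples, 4 untreated and 4 treated with TGFβ1, was analysed. Per the labels, the authors prepared libraries with a stranded poly(A) kit and sequenced single-end reads of 75 bases. The submitters' processing notes list bcl2fastq 2.20.0.422, STAR 2.7.3a, featureCounts 1.5.1 and GRCm38. The authors deposited raw counts of reads per gene, without normalization. The annotation release and strand setting are not given in the sources used here, and reads shared between genes can therefore be split or lost.

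Libraries were grouped by their labels. Counts were filtered with filterByExpr in edgeR 4.0.16 (R 4.3.3) by group (minimum count 10), scaled by TMM and compared with glmFit and glmLRT, the test named in the study's methods, at an FDR of 0.05 (Benjamini-Hochberg, 13818 genes). No gene-set test was used. Standard errors came from the fitted negative binomial model (common biological coefficient of variation 0.0523). Chi-square per degree of freedom between the 12 pairs of libraries within groups was 2.37 to 7.84, so no library was a copy of another. Low-count members were compared by exact two-sided permutation of log2 CPM (0.5 counts added) and by ratios with exact binomial intervals at 95%. Positions, exon lengths and shared 75-base stretches came from GENCODE M21, which matched 55230 of 55471 genes. The pipeline was tested on simulated data.

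Members and gene lists were chosen with earlier results of these data known. Every tested member is named. From each list the 3 called genes with the largest absolute log2 fold change are named, with Tnfaip3, Nfkbia, Cflar, Casp8 and Adam17 in any case. 1 gene of the TGFβ response check is not reported here. Alternatives were the quasi-likelihood test, DESeq2 1.42.0, DESeq2 size factors, total counts, no filter, a filter of 1 CPM in 4 libraries, a replicate block and each library left out.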

Additional observations from a re-analysis of the deposited data

How the results depend on the processing

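All 24 member calls and their directions were kept with edgeR's quasi-likelihood test and with DESeq2 size factors. The number of ligands called higher was 1, and it was 3 with DESeq2 and with no filter, which test 14 ligands, and 2 with a filter of 1 CPM in 4 libraries, under which Tnfsf12 was called. With that filter 1 ligand was called lower in place of 2, since Tnfsf10 was not tested. With single libraries left out, 1 to 2 ligands were called higher and 2 to 4 lower. Of these, 2 were higher without untreated library 1, 3 or 4 or TGFβ1 library 2, and 4 were lower without TGFβ1 library 1. More ligands pass the filter in most of these fits. In the same fits, 11 to 13 receptors were called higher and 2 lower. Estimates near 0 that were not called changed sign: Ltbr had -0.0604 with total counts, -0.0236 with no filter and -0.0083 to 0.0192 with single libraries left out, Tnfrsf21 had -0.0166 with total counts and -0.0418 to 0.102 with single libraries left out, and Casp8 had -0.0089 with total counts. Tnfsf11 was called lower with total counts (-0.50), which move the median of all genes to -0.0735. The replicate numbers in the labels showed no sign of pairing. Deviations of same-numbered libraries had correlations between -0.152 and -0.0344, and those of other pairs between -0.188 and 0.202. Such correlations cannot show whether the samples were paired by design. A fit with the replicate number as a block called 1 ligand and 13 receptors higher and 2 of each lower, and changed no member's call. Depth limits the 15 members that were not tested, for which low counts leave wide intervals.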

Other observations

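In a fit with no filter on low counts, which tested 27709 genes, 13 of the 15 members left out above received values. Tnfsf4, Tnfsf13, Cd27 and Tnfrsf19 were called higher and Tnfsf15 lower by edgeR's likelihood ratio test, with log2 fold changes of 3.12, 1.73, 4.24, 1.503 and -1.46 that depend on the prior count. The other 8 were not called. Tnfsf4 and Tnfrsf19 had overlapping groups, with exact permutation p of 0.0571 and 0.143. The share of all genes called in this fit is not given here, and the calls are not read as a result.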
